A study of Mus musculus with 63 samples.

Results

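Open chromatin was compared between *Chaserr*-/- and WT mEFs from 6 ATAC-seq peak lists, 3 of each genotype, out of 63 samples in the series. The lists were chosen by their titles: *Chaserr*-/- (KO) replicates 1 to 3, and WT replicates 4 to 6, which came from the same pregnancy as the *Chaserr*-/- cells. mEFs are primary fibroblasts grown from dissociated mouse embryos without the head and the liver, and ATAC-seq cuts DNA with a transposase wherever chromatin is accessible. Where the peaks of the 6 lists overlapped they were merged, which gave 122419 regions on the mm9 genome. Each *Chaserr*-/- embryo is homozygous for a deletion of the *Chaserr* promoter region made with CRISPR/Cas9 in zygotes of a mixed background, which was then crossed to C57BL/6 Ola HSD mice, and both founder lines were used interchangeably. The WT cells carry no edited allele. The cells of each genotype came from separate embryos, and their sex was not given in the sources used here. A second set holds *Chaserr*-/- *Chd2* m/m mEFs and WT mEFs from that pregnancy (3 lists each). Its double mutant cells carry a frameshift in *Chd2* besides the *Chaserr* deletion. The set is used below to check the *Chaserr* part of the labels, to look for the same regions in other lists, and to compare effects.

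The *Chaserr* gene gives a long noncoding RNA and precedes *Chd2*, which is read in the same direction. *Chd2* encodes a chromatin remodeller of the CHD family, enzymes that use ATP to slide, space or assemble nucleosomes at promoters and along transcribed genes. Open promoters lack nucleosomes over their start sites, and open regions away from promoters are mostly enhancers, which in fibroblasts are often bound by AP-1 and TEAD factors. The comparison asks where chromatin opened or closed when *Chaserr* was lost, in particular at promoters that lie just past the end of another gene of the same direction, a layout that *Chd2* itself shares.

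Of the sequences that the results turn on, the *Chaserr* promoter and the guide sites that frame its deletion are shown because they check the genotype. The *Chd2*, *Dapk3*, *Snapc5* and *Klhdc9* promoters are shown because *Chd2* is the neighbour of the deletion, and the other 3 are promoters with a lower summit in *Chaserr*-/- cells. Each stretch is 300 bases of mm9 centred on the summit of the merged region and written along the gene's strand. Capitals mark matches, on either strand, to CCAAT (bound by NFY), TGACGTCA (CRE, bound by CREB and ATF factors), TGANTCA (AP-1), GGAATG (TEAD) and CAGATG or CATATG (E-box). TGTGGTT (RUNX), CCGGAAG (ETS) and the YY1, NRF1 and CTCF motifs were also searched. The N of TGANTCA stands for any base, and the capitals describe the sequence and show no binding.
Chaserr promoter, chr7:80703391-80703690, minus strand: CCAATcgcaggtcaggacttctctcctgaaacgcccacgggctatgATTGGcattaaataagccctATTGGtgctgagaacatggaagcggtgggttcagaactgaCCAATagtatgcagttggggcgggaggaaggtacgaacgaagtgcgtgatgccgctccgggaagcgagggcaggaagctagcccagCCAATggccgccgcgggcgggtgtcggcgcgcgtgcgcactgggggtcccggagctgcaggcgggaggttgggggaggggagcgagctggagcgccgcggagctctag
Chd2 promoter, chr7:80686511-80686810, minus strand: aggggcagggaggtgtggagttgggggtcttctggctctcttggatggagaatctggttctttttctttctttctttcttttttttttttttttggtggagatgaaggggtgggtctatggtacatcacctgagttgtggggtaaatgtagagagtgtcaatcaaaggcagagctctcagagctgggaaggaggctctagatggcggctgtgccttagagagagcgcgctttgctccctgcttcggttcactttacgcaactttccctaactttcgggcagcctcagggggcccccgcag
Dapk3 promoter, chr10:80645371-80645670, plus strand: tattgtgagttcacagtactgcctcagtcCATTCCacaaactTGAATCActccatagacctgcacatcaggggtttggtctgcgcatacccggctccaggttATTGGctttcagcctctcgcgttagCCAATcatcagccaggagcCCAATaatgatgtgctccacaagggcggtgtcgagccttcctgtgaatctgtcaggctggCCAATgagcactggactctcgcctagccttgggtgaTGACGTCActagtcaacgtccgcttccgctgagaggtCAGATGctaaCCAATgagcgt
Snapc5 promoter, chr9:64026974-64027273, plus strand: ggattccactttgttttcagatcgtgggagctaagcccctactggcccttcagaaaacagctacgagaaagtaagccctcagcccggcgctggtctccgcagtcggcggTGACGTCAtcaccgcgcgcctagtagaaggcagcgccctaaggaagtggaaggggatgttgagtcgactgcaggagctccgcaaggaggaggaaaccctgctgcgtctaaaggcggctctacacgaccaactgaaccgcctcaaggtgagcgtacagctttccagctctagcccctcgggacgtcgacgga
Klhdc9 promoter, chr1:173290806-173291105, minus strand: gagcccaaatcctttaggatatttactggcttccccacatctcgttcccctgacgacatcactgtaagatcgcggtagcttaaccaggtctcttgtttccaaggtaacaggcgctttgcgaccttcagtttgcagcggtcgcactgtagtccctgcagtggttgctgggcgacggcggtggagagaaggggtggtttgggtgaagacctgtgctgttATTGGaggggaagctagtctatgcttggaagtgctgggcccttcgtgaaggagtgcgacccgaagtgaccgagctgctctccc
The *Chaserr* stretch holds 5 CCAAT matches at a GC content of 63.7%, and the *Dapk3* stretch holds 9 matches of 5 kinds, 5 of them CCAAT. The *Snapc5* stretch has 1 CRE, the *Klhdc9* stretch 1 CCAAT and the *Chd2* stretch none of the motifs searched. For scale, CCAAT occurred in 36.3% of the promoter regions present in all 6 lists and in 35.3% of the promoters of all genes, and the CRE in 3.43% and 1.79%. The guide sites, each 20 bases written along the strand given, are as follows.
Guide 2, chr7:80702568-80702587, minus strand: gaggtgggaacccatctttg
Guide 1, chr7:80702699-80702718, minus strand: cggtccgagccagcggggag
Guide 4, chr7:80703600-80703619, minus strand: tgctgagaacatggaagcgg
Guide 3, chr7:80703696-80703715, plus strand: agtgaaactctgggtttgcg
The *Chaserr* start (chr7, 80703281) lies between the pairs, which are 881 to 1148 bases apart, and the site of guide 4 can be read within the promoter stretch above.

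The *Chaserr* promoter was open in all 3 WT lists and in none of the *Chaserr*-/- lists. Heights are given here as the summit pile-up, the number of reads stacked over the highest base of a peak, which was recovered from the deposited fold enrichment and p-value of each peak. In WT lists 4, 5 and 6 the *Chaserr* region (chr7:80703221-80703991) had summit pile-ups of 132, 99 and 78 reads, with fold enrichments over the local background of 16.8, 14.2 and 12.7. Those values placed it at percentiles 96.9, 90.5 and 89.0 of fold enrichment among the 38126 regions present in all 6 lists. The 3 WT lists of the second set also had the peak, at 112, 26 and 72 reads. No *Chaserr*-/- *Chd2* m/m list had a peak over the *Chaserr* start, so all 12 lists went with the *Chaserr* part of their labels. This peak does not check the *Chd2* m/m part. *Chaserr*-/- list 3 had a small peak of 10 reads that began 17446 bases upstream of the *Chd2* start, just beyond the deleted stretch, and *Chaserr*-/- *Chd2* m/m list 3 had one of 14 reads that began 17273 bases upstream.

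At the *Chd2* promoter, 16649 bases downstream of the *Chaserr* start, the groups overlapped once the lists' own heights were taken into account. Its summit pile-ups were 33, 41 and 53 reads in *Chaserr*-/- lists 1, 2 and 3 and 31, 26 and 21 in WT lists 4, 5 and 6. Raw heights were thus larger in every *Chaserr*-/- list, but so was the median height of all shared regions. After scaling, the difference was +0.22 on the log2 scale (SE 0.19, edgeR quasi-likelihood test, adjusted p = 0.965). Its percentiles, 2.01, 1.54 and 4.91 against 5.36, 0.626 and 1.05, put it among the least enriched shared regions in every list. As a difference of normal scores of these ranks it stood at 0.183 (limma, adjusted p = 0.904), from 0.0104 without WT list 5 to 0.463 without WT list 4. *Chd2* RNA in mEFs of the same genotypes was higher at 93.7, 79.2 and 91.2 CPM against 30.0, 31.7 and 35.1 (log2 fold change 1.45, SE 0.14, edgeR adjusted p = 0.00568). CPM are counts scaled to the library total as adjusted by edgeR's TMM factors. Between the genes, a weak peak 10.2 to 10.7 kb upstream of the *Chd2* start reached 8 and 12 reads in *Chaserr*-/- lists 2 and 3 and 12 and 15 in WT lists 4 and 5.

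**Figure D1:**
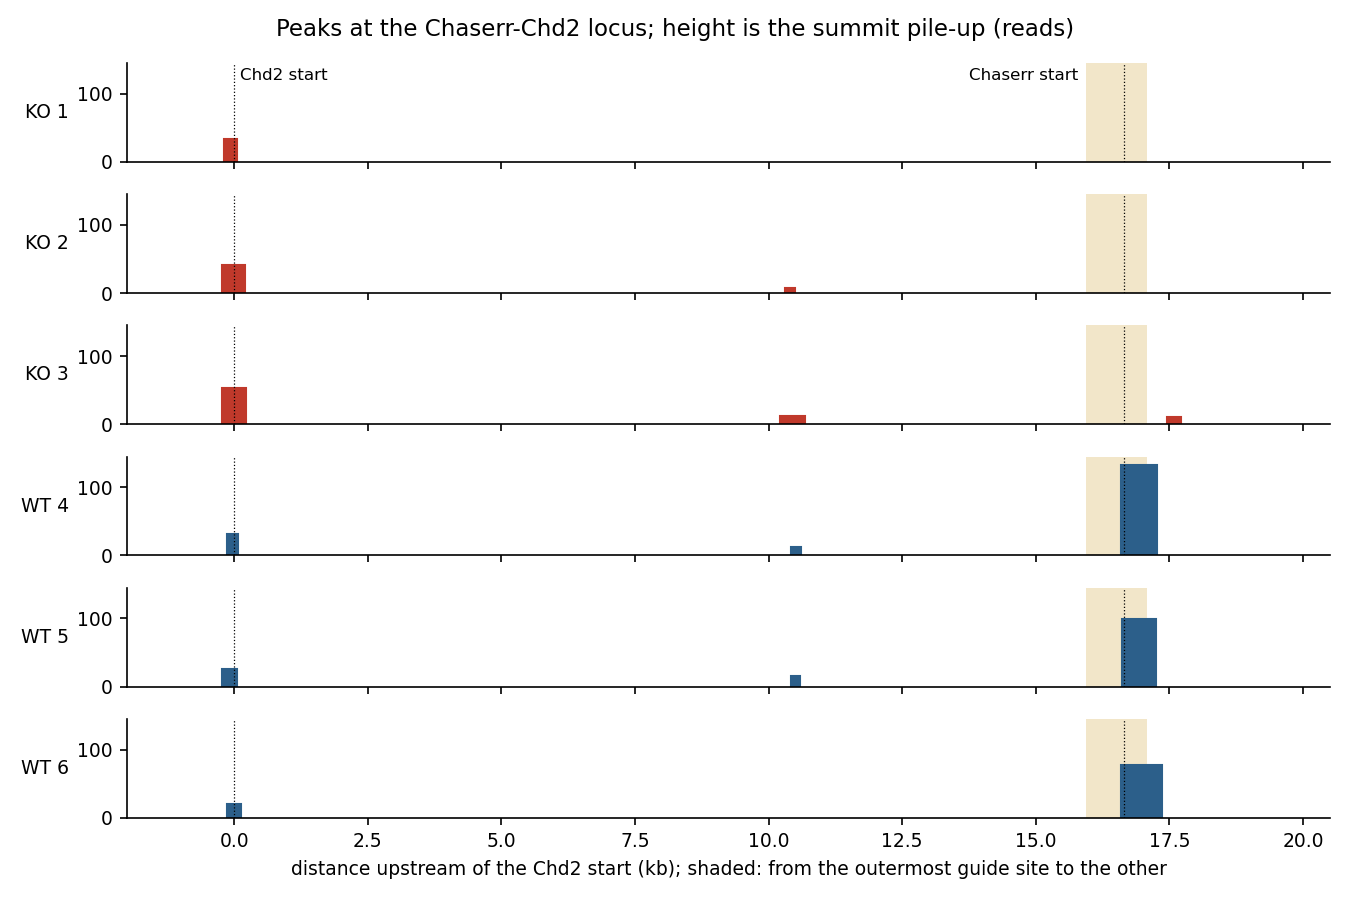
Peaks of each list around *Chd2* and *Chaserr*, plotted as distance upstream of the *Chd2* start in kb (x axis) against summit pile-up in reads (y axis), with the stretch between the outermost guide sites shaded. The *Chaserr* peak is present in the 3 WT lists, at 132, 99 and 78 reads, and absent in the 3 *Chaserr*-/- lists, while the *Chd2* promoter has a peak in all 6.

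The lists differed in length and depth before any region was compared. *Chaserr*-/- lists 1, 2 and 3 held 62610, 91121 and 93597 peaks and covered 25.1, 40.4 and 42.7 Mb. WT lists 4, 5 and 6 held 66967, 70516 and 58324 peaks and covered 25.4, 27.3 and 22.7 Mb. *Chaserr*-/- list 1 was therefore as short as the WT lists, and lists 2 and 3 were longer than any of them.

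Read totals were not used here, but the genome-wide background pile-up, which grows with the number of reads, was 1.36, 1.37 and 1.36 reads in the *Chaserr*-/- lists and 1.18, 1.00 and 0.913 in the WT lists. The median summit pile-up of shared regions was likewise 25, 33 and 36 against 23, 24 and 18 reads. Median peak width was 309, 348 and 360 bases against 290, 299 and 299. The groups did not overlap in these 3 properties, nor in the share of peaks on chromosome X (2.14% ± 0.0328 against 2.23% ± 0.0532, SD, n = 3). Each gave p = 0.1 (exact permutation test, two-sided), the smallest p that 3 against 3 lists allow, and an adjusted p of 0.275 over 11 properties. The share of peaks at promoters, 22.6, 17.2 and 16.6% against 21.4, 20.7 and 23.9%, overlapped. Every presence count below therefore rests on *Chaserr*-/- lists that were deeper than the WT lists, and the parts of depth and genotype in those counts cannot be told apart.

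**Figure D2:**
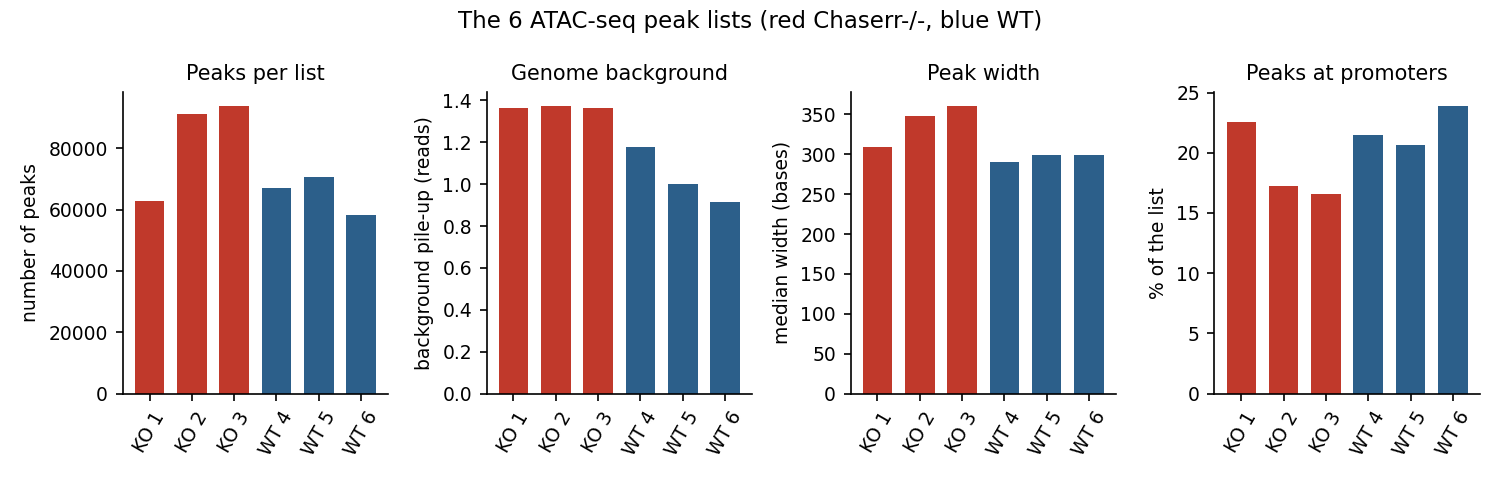
Number of peaks, genome background pile-up (reads), median peak width (bases) and percent of peaks at promoters, one bar per list, red for *Chaserr*-/- and blue for WT, with no error bars since each bar is 1 list. Background and width are higher in all 3 *Chaserr*-/- lists, whereas the promoter share of *Chaserr*-/- list 1 (22.6%) lies among the WT lists.

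The open promoters were those of fibroblasts in every list. A promoter is taken here as 300 bases either side of a gene's start, and a peak touched the promoter of 15652, 17053 and 17099 of 34414 genes in the *Chaserr*-/- lists and of 15849, 15996 and 15556 in the WT lists, 45.2 to 49.7% of genes. Of 28 fibroblast genes, such as collagen genes, *Pdgfrb* and *Twist1*, 26 had an open promoter in each of the 6 lists, and *Pdgfra* and *Ddr2* in none. Of 19 genes of sensory neurons and their glia, looked at because the deposited ATAC-seq protocol speaks of dorsal root ganglia, 8, 12 and 11 were open in the *Chaserr*-/- lists and 10 in each WT list, close to the share among all genes. Macrophage genes were open for 1, 2 and 3 of 16 against 3, 2 and 2, erythroid genes for 0, 1 and 0 of 8 against 0, 1 and 0, and pluripotency genes for 1 of 6 in every list. Skeletal muscle genes were open for 4, 5 and 1 of 14 against 5, 2 and 2, with overlapping counts.

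Of the 122419 merged regions, 38126 (31.1%) were present in all 6 lists, 25874 in 1 *Chaserr*-/- list alone and 9529 in 1 WT list alone. Regions present in all 3 *Chaserr*-/- lists and no WT list numbered 1723 (1.41% of all), and those present in all 3 WT lists and no *Chaserr*-/- list 118 (0.0964%). With the lists shortened to the 58324 peaks of the shortest, the counts became 623 and 351.

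Both classes were weak and mostly away from promoters. The 1723 regions had a median summit pile-up of 12 reads and a median percentile of 7.68, and 755 lay in introns, 789 between genes, 87 in exons and 92 at promoters. The 118 regions had a median of 9 reads and a median percentile of 6.41, and 49 lay in introns, 49 between genes, 7 in exons and 13 at promoters. Of the 1723, 949 (55.1%) had a peak in at least 1 WT list of the second set, beside 59.2% of all merged regions. In at least 1 *Chaserr*-/- *Chd2* m/m list 1314 (76.3%) had one, beside 69.2% of all. Of the 118, 75 (63.6%) had a peak in at least 1 WT list of the second set. In at least 1 *Chaserr*-/- *Chd2* m/m list 87 (73.7%) of them had one. Whether these shares differ from those of all regions was not tested.

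Of the 10 regions of highest rank in the *Chaserr*-/- class most were intronic. They included a region in *Mef2a*, which encodes a MADS-box transcription factor (chr7:74432301-74432771, 22, 21 and 26 reads in lists 1, 2 and 3), and one in *Trpm3*, a cation channel gene (24, 22 and 33 reads). A region in *Edar*, the ectodysplasin receptor gene, had 28, 27 and 28 reads. All 3 had a peak in WT lists of the second set, of 13 reads in list 1 at *Mef2a*, of 25 and 20 in lists 1 and 3 at *Trpm3*, and of 22 and 12 in lists 1 and 3 at *Edar*. In the WT class the *Chaserr* region stood far above the rest. Among the others of highest rank were introns of *Ube2r2*, a ubiquitin-conjugating enzyme gene (16, 15 and 12 reads in WT lists 4, 5 and 6), of *1700081L11Rik* (18, 14 and 13 reads), and of *Acox2*, a peroxisomal oxidase gene (15, 18 and 11 reads). An intron of *Ank3*, which encodes ankyrin-G, had 20, 27 and 25 reads. These 4 had a peak in *Chaserr*-/- *Chd2* m/m list 2, of 17, 11, 18 and 24 reads at *Ube2r2*, *1700081L11Rik*, *Acox2* and *Ank3*.

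By gene, 97 promoters (0.282% of 34414) had a peak in all 3 *Chaserr*-/- lists and in no WT list, and 9 (0.0262%) in all 3 WT lists only. In 67 of the 97 the merged region held no WT peak at all, and in the other 30 a WT peak stopped short of the promoter. Among the 67, the homeobox genes *Dlx5* and *Hoxa11* had 12, 19 and 21 and 14, 17 and 16 reads in *Chaserr*-/- lists 1, 2 and 3, and *Bmp4*, a secreted patterning ligand, had 14, 22 and 27. In the second set, WT lists 1 and 3 had 12 and 20 reads at *Dlx5*, and WT list 3 had 16 at *Bmp4*. *Crabp2*, which binds retinoic acid, had 14, 21 and 20 reads, and *Sytl4*, a vesicle exocytosis gene on chromosome X, had 18, 16 and 17. By percentile of fold enrichment most of these peaks were weak. *Dlx5* stood at 1.94, 4.85 and 4.24, *Hoxa11* at 3.98, 0.307 and 0.727, and *Bmp4* at 0.226, 0.535 and 0.952. *Crabp2* stood at 0.866, 0.220 and 0.729, and *Sytl4* at 45.8, 28.6 and 29.9. None of these 5 genes passed the RNA test (edgeR, adjusted p from 0.104 for *Dlx5*, at a log2 fold change of -0.85, to 0.607 for *Crabp2*). These promoters were named after their values were seen, apart from *Sytl4*, *Dlx5* and *Hoxa11*.

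Of 10 endothelial genes, 3, 4 and 4 had an open promoter in the *Chaserr*-/- lists and 1 in each WT list, a count that was not tested. The share among all genes was 45.5, 49.6 and 49.7% against 46.1, 46.5 and 45.2%. *Tek*, the angiopoietin receptor gene, had 12, 23 and 18 reads and *Cldn5*, a tight junction claudin gene, 10, 13 and 19. Both belong to the 30 promoters where a WT peak of the same merged region stopped short of the promoter, and the *Cldn5* region, present in all 6 lists, had a pile-up log2 fold change of 0.11 (edgeR adjusted p = 0.99). In the second set the *Tek* promoter had 11 and 17 reads in WT lists 1 and 3 and 14 in *Chaserr*-/- *Chd2* m/m list 3, while *Cldn5* had no promoter peak there. *Sox17* had 9 and 15 reads in *Chaserr*-/- lists 2 and 3. *Kdr* was open in all 6 lists, and the defining endothelial genes *Pecam1*, *Cdh5*, *Tie1*, *Emcn*, *Erg* and *Esam* had no promoter peak in any. None of the endothelial genes tested passed in RNA, with log2 fold changes of -1.07 for *Cldn5*, -0.98 for *Cdh5*, -0.85 for *Pecam1* and 0.05 for *Tek* (edgeR adjusted p = 0.319, 0.270, 0.231 and 0.898). The part of list depth in these counts was not tested.

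The 9 promoters open only in WT lists were led by *Chaserr*. Of the others, *Dkk3*, a member of the Dickkopf family of Wnt modulators, had 11, 13 and 10 reads in WT lists 4, 5 and 6, and its RNA log2 fold change was -0.05 (edgeR adjusted p = 0.841). *Dazap1*, an RNA-binding protein gene, had 34, 35 and 41 reads at percentiles of only 0.388, 0.299 and 11.6, with an RNA log2 fold change of -0.37 (edgeR adjusted p = 0.109).

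Among the 38126 shared regions, fold enrichment was ranked within each list, turned into normal scores and compared with limma. Ranking removes a scaling common to a whole list, but whether it removes other effects of depth was not tested. No region passed an adjusted p of 0.05 in either direction, and the smallest adjusted p was 0.511. At an unadjusted p of 0.05, 1579 regions (4.14%) were higher and 1407 (3.69%) lower in *Chaserr*-/- cells. The ranks of -log10 q gave 0 calls as well, with 1203 (3.16%) higher and 1352 (3.55%) lower at an unadjusted p of 0.05 and a smallest adjusted p of 0.618. Lists of the same genotype were about as alike as lists of different genotypes: across the 38126 regions, which share their base composition and mappability, normal scores correlated at 0.777 to 0.838 among *Chaserr*-/- lists, at 0.776 to 0.808 among WT lists and at 0.713 to 0.813 between genotypes.

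The region of smallest p in the upward direction was the promoter of *Oprk1*, the kappa opioid receptor gene (chr1:5578251-5579193). It had 20 reads in each *Chaserr*-/- list and 7, 10 and 7 in the WT lists, and percentiles of 52.99, 48.7 and 44.8 against 1.11, 10.8 and 4.72. Every *Chaserr*-/- value lay above every WT value, but the region failed the correction (limma, unadjusted p = 0.00011, adjusted p = 0.511). In the downward direction a region of 1335 bases on unplaced sequence came first, with 14, 11 and 11 reads against 37, 22 and 34 (limma, unadjusted p = 7.86e-05, adjusted p = 0.511). Next, and first on a placed chromosome, an intron of *Dab2ip*, a Ras GTPase-activating protein gene, had 14, 21 and 21 reads against 24, 29 and 19, and percentiles of 2.93, 2.86 and 1.37 against 25.5, 35.8 and 34.3 (limma, adjusted p = 0.511).

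Summit pile-ups are whole numbers of reads, so they were also tested with edgeR's quasi-likelihood method, after scaling to the shared regions. Chosen after the rank tests had been seen, this test called 29 regions lower (0.0761%) and 1 higher (0.00262%) in *Chaserr*-/- cells, with 1168 (3.06%) lower and 1040 (2.73%) higher at an unadjusted p of 0.05. Of the 29, 16 lay on sequence not placed on a chromosome, 12 on autosomes and 1 on chromosome X. Pile-ups count reads at the highest base of each peak rather than over the region, so the height of a peak in 1 list can come from another base than in the next.

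*Dapk3*, which encodes a death-associated protein kinase that acts on myosin light chain, had the most clearly lowered promoter. Its region (chr10:80645198-80646033) had summit pile-ups of 54, 62 and 59 reads in *Chaserr*-/- lists 1, 2 and 3 and of 101, 91 and 68 in WT lists 4, 5 and 6. Although the *Chaserr*-/- lists were the deeper ones, every value lay below every WT value. Relative to the median of its list, it stood at 1.89 ± 0.261 in *Chaserr*-/- and 3.99 ± 0.350 in WT cells (SD, n = 3), 0.475 times the WT level. The log2 fold change was -1.04 (SE 0.15, edgeR adjusted p = 0.000169), and percentiles of fold enrichment were 36.9, 31.2 and 23.8 against 74.7, 72.5 and 78.8. The start of *Dapk3* lies 500 bases past the end of *Eef2*, the gene of translation elongation factor 2, which is on the same strand and had a WT mean of 797 FPKM. *Eef2*'s own promoter had 43, 40 and 51 reads against 45, 49 and 25 (log2 fold change -0.31, edgeR adjusted p = 0.900). *Dapk3* RNA was lower as well, at 12.8, 17.9 and 19.7 CPM against 46.7, 48.1 and 55.2 (log2 fold change -1.57, SE 0.18, edgeR adjusted p = 0.0105).

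*Snapc5*, a subunit of the complex that activates small nuclear RNA genes, had the same layout. Its promoter region (chr9:64026887-64027548) had 26, 38 and 47 reads against 56, 50 and 36, values that overlap until each list's depth is accounted for. Relative to the list median it stood at 1.17 ± 0.133 against 2.17 ± 0.231 (SD, n = 3), with no overlap, and the log2 fold change was -0.83 (SE 0.17, edgeR adjusted p = 0.0252). This call was lost whenever any 1 list was left out, at log2 fold changes of -0.96 to -0.74, and also with DESeq2 (adjusted p = 1), with scaling by genome background (edgeR adjusted p = 0.607), without unplaced contigs (edgeR adjusted p = 0.0544) and on autosomes alone (edgeR adjusted p = 0.0541), the log2 fold change in these 4 lying between -0.84 and -0.76. *Snapc5* starts 735 bases past the end of *Rpl4*, a ribosomal protein gene with a WT mean of 947 FPKM. Its RNA was at 4.83, 4.57 and 3.68 CPM against 14.2, 9.16 and 12.9 (log2 fold change -1.47, edgeR adjusted p = 0.0522).

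Of the other lowered promoters, *Klhdc9* (chr1:173290689-173291751), a kelch repeat gene, had 22, 30 and 33 reads against 41, 52 and 31. Scaled to the list median it was at 0.902 ± 0.0194 against 1.89 ± 0.241 (SD, n = 3; log2 fold change -1.02, SE 0.19, edgeR adjusted p = 0.00659), and the call was lost without *Chaserr*-/- list 3, without WT list 4 and without WT list 5 (log2 fold changes of -1.08 to -0.88 over all 6 left-out lists), with DESeq2 (log2 fold change -1.03, adjusted p = 1) and with scaling by genome background (log2 fold change -0.95, edgeR adjusted p = 0.227). *2810407C02Rik* (chr3:58380429-58381334) had 28, 41 and 43 reads against 51, 51 and 38 (log2 fold change -0.80, SE 0.17, edgeR adjusted p = 0.0340), again lost whenever 1 list was left out (log2 fold changes of -0.84 to -0.74), with DESeq2 (adjusted p = 1), with scaling by genome background (edgeR adjusted p = 0.777), without unplaced contigs (edgeR adjusted p = 0.0668) and on autosomes alone (edgeR adjusted p = 0.0607), the log2 fold change in these 4 lying between -0.81 and -0.73. Here promoter and RNA went opposite ways: its RNA was at 210, 115 and 129 CPM against 89.4, 88.9 and 80.8 (log2 fold change 0.81, edgeR adjusted p = 0.0523). The fifth promoter, *Gm15247* on chromosome X, had 193, 95 and 63 reads against 367, 90 and 183, with overlapping percentiles (edgeR adjusted p = 0.0236).

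The 16 lowered regions on unplaced sequence had medians of 46.5, 24 and 29 reads against 55, 39.5 and 53.5. Among the autosomal rest was an intron of *Mdga2*, a cell adhesion gene (21, 15 and 16 reads against 28, 28 and 27, log2 fold change -1.15, edgeR adjusted p = 0.0236).

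**Figure D3:**
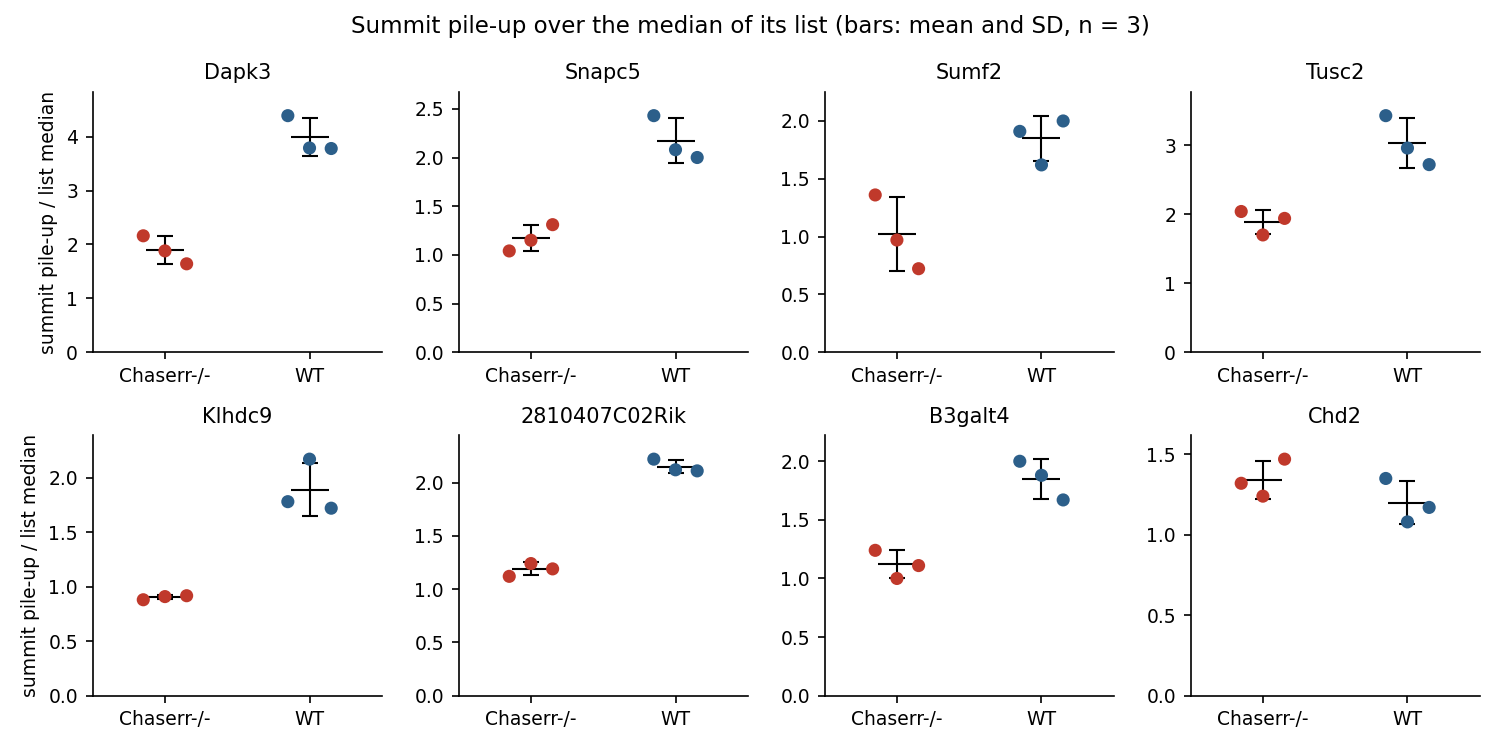
Summit pile-up divided by the list's median over shared regions (y axis) for *Chaserr*-/- (red) and WT (blue) lists, 1 point per list, with the mean and SD of 3 lists in black. The promoters of *Dapk3*, *Snapc5*, *Sumf2*, *Tusc2*, *Klhdc9*, *2810407C02Rik* and *B3galt4* are lower in every *Chaserr*-/- list, and *Chd2* overlaps.

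Promoters close behind an expressed gene were then described together. There were 231 genes whose promoter was present in all 6 lists and whose start lay under 2 kb past the end of a same-strand gene with a WT mean of at least 10 FPKM. The study drew this layout from data of this series, so it is not independent of them. Their median percentile difference, *Chaserr*-/- minus WT, was -4.98, beside -4.16 over all 14420 such promoters and -4.36 over the 11086 with more than 10 kb to the upstream gene. How far the group stood from all promoters within each list depended on how percentiles were summarised, both ways being chosen after the data were seen. With each gene's percentiles centred on its mean over the 6 lists, the close tandem median minus that of all promoters was -1.05, -1.28 and -1.66 in *Chaserr*-/- lists 1, 2 and 3 and +1.01, +0.605 and +0.586 in WT lists 4, 5 and 6, with no overlap (-1.33 ± 0.309 against +0.735 ± 0.240, SD, n = 3). With percentiles not centred it was +1.93, -0.202 and +0.159 against +1.12, +0.587 and +1.48, with overlap. At a limit of 5 kb the median difference was -3.97, above that of all promoters, and the centred gaps overlapped. By percentile of -log10 q the median differences were -1.79 and -0.658. All *Chaserr*-/- percentiles lay below all WT percentiles for 46 of the 231 (19.9%, beside 12.9% of all promoters) and above them for 6 (2.60%, beside 3.09%). In summit pile-up, 24 of 230 (10.4%) were lower at an unadjusted p of 0.05, beside 4.5% of all promoters, and 2 (0.870%) were higher, beside 1.86%. Where the upstream gene was under 10 FPKM, 6 of 364 (1.65%) were lower and 16 (4.40%) higher in pile-up, and the gaps lay the other way with no overlap under both summaries, although *Chaserr*-/- list 1 and WT list 5 all but met when centred. Centred they were -0.0664, +1.99 and +1.91 against -0.920, -0.0680 and -1.45 (+1.28 ± 1.17 against -0.813 ± 0.698, SD, n = 3), and not centred +4.11, +7.69 and +8.29 against +3.43, +3.96 and +2.30 (+6.70 ± 2.26 against +3.23 ± 0.849).

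Of the 24, *Dapk3* and *Snapc5* passed the correction. *Sumf2*, a sulfatase-modifying factor gene 1170 bases past the chaperonin gene *Cct6a*, had 34, 32 and 26 reads against 44, 39 and 36 (log2 fold change -0.85, edgeR adjusted p = 0.0647). *Tusc2*, a tumour suppressor candidate gene 992 bases past *Rassf1*, had 51, 56 and 70 against 79, 71 and 49 (log2 fold change -0.64, edgeR adjusted p = 0.0938). *B3galt4*, a glycosyltransferase gene 511 bases past the ribosomal protein gene *Rps18* (2269 FPKM in WT), had 31, 33 and 40 against 46, 45 and 30 (log2 fold change -0.69, edgeR adjusted p = 0.172). All 3 were lower in every *Chaserr*-/- list once scaled to the list median, at 0.551, 0.623 and 0.605 times the WT mean. The promoters of their upstream neighbours *Cct6a*, *Rassf1* and *Rps18* had log2 fold changes of +0.04, +0.12 and +0.04, and that of *Rpl4*, upstream of *Snapc5*, one of -0.01. *Smarcb1*, a core subunit of the SWI/SNF remodeller, had 39, 53 and 57 reads against 60, 48 and 43 and the polarity gene *Scrib* 34, 37 and 35 against 41, 38 and 40, with log2 fold changes of -0.50 and -0.64 (edgeR adjusted p = 0.527 and 0.352).

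By percentile the widest falls after *Dapk3* (-44.7) were at *Cend1* (-39.2), *Flot1* (-36.7), *Snapc5* (-30.8), *E130309D02Rik* (-30.3), *Efna4* (-30.2), *Mtss1l* (-28.6) and *Agrn* (-28.2). The widest rises were at *Tmem106a* (+27.2, with overlapping groups), *Bbs1* (+23.5) and *Khk* (+19.3). None of these passed the rank test. *Cend1*, a gene of neuronal cell cycle exit 177 bases past *Slc25a22*, rested on few reads, 9, 12 and 12 against 24, 12 and 13. Of the genes the study singled out, *Cpt1c*, a carnitine palmitoyltransferase gene 1138 bases past *Prmt1*, had a promoter peak of 17 reads in WT lists 4 and 5 and none in the *Chaserr*-/- lists, and its RNA was lower (log2 fold change -1.75, edgeR adjusted p = 0.0439). *Ctsk*, the gene of the collagen-degrading protease cathepsin K, had 14 and 20 reads in *Chaserr*-/- lists 2 and 3, no peak in list 1, and 13, 23 and 22 in the WT lists.

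RNA of these genes was set beside their promoters, from mEF libraries of the same genotypes that are not known to be the same cultures (9672588 to 11209021 counts each). Of 13580 genes tested, 3 (0.0221%) were higher and 13 (0.0957%) lower in *Chaserr*-/- cells with edgeR, whereas DESeq2, on the same counts, called 1479 and 1103. Many genes sat just past the edgeR threshold, at an adjusted p of 0.052 to 0.055, so that edgeR's count depends on small changes in the fit. The 215 close tandem genes with RNA had a median log2 fold change of -0.38, beside 0.01 over 11059 genes with a shared promoter. Of the 215, 181 were below 0, beside 5460 (49.4%) of the 11059. Where the upstream gene was under 10 FPKM, the 331 genes with RNA had a median of -0.18. For the 23 tested genes among the 24 with a lower promoter pile-up the median was -0.75, with 21 below 0. For the 165 tested genes with neither a lower pile-up nor all *Chaserr*-/- percentiles below all WT percentiles it was -0.37, with 138 below 0.

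The same did not hold for promoters at large. The 518 genes whose promoter pile-up was lower at an unadjusted p of 0.05 had a median RNA log2 fold change of 0.06, with 227 below 0, and the 184 with a higher pile-up one of -0.04, with 96 below 0. For genes open only in the 3 *Chaserr*-/- lists the median was -0.13 (35 tested), and for those open only in WT lists -0.21 (4 tested). Of the 14 genes with a called RNA change and a mapped start, 5 had no promoter peak in any list and 4 (*Chd2*, *Dapk3*, *Fzd2* and *Lama3*) had one in all 6, so that their pile-ups could be tested. Of these 4, *Dapk3* was called. *Fzd2*, a Wnt receptor gene, fell in RNA from 226, 203 and 238 CPM to 106, 109 and 133 with a promoter log2 fold change of -0.01. *Lama3*, a laminin chain gene, rose in RNA (log2 fold change 1.48, edgeR adjusted p = 0.0406) with 14, 19 and 21 reads against 24, 14 and 11 at its promoter.

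**Figure D4:**
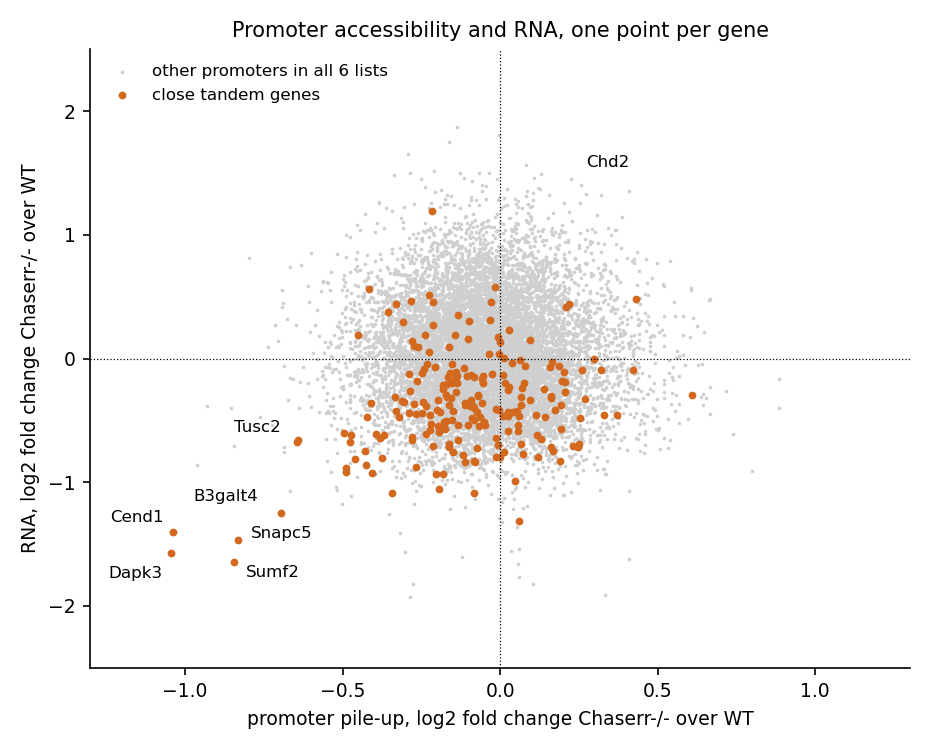
Log2 fold change of promoter summit pile-up (x axis) against that of RNA (y axis), *Chaserr*-/- over WT, 1 point per gene with a promoter in all 6 lists, close tandem genes in orange. *Dapk3*, *Snapc5*, *Sumf2*, *Cend1* and *B3galt4* lie low on both axes, while *Chd2* is high in RNA (1.45) at a promoter change of 0.22.

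Across the shared regions, promoters ranked lower and distal regions higher in *Chaserr*-/- lists. The median percentile difference was -4.05 over 12912 promoter regions, -1.57 over 1330 exonic, +1.49 over 11051 intronic and +2.38 over 12833 intergenic regions. Separated groups were lower for 1614 promoter regions (12.5%) and higher for 391 (3.03%), whereas away from promoters they were lower for 1206 (4.78%) and higher for 1934 (7.67%), beside 7.4% and 6.1% over all shared regions.

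The lists did not all take part. Median promoter percentiles were 70.2, 63.4 and 61.1 in *Chaserr*-/- lists 1, 2 and 3 and 71.7, 68.4 and 73.7 in WT lists 4, 5 and 6, so that *Chaserr*-/- list 1 lay among the WT lists (exact permutation test, p = 0.2). The shortest list had the highest promoter median and the longest the lowest, and the part of list length in the shift was not tested. In summit pile-up the shift was small, with median log2 fold changes of -0.04 at promoters and +0.03 elsewhere. The 1614 lower promoter regions were richer in GC than the 391 higher ones, with medians of 68.7% and 59.3% beside 65.0% over all.

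**Figure D5:**
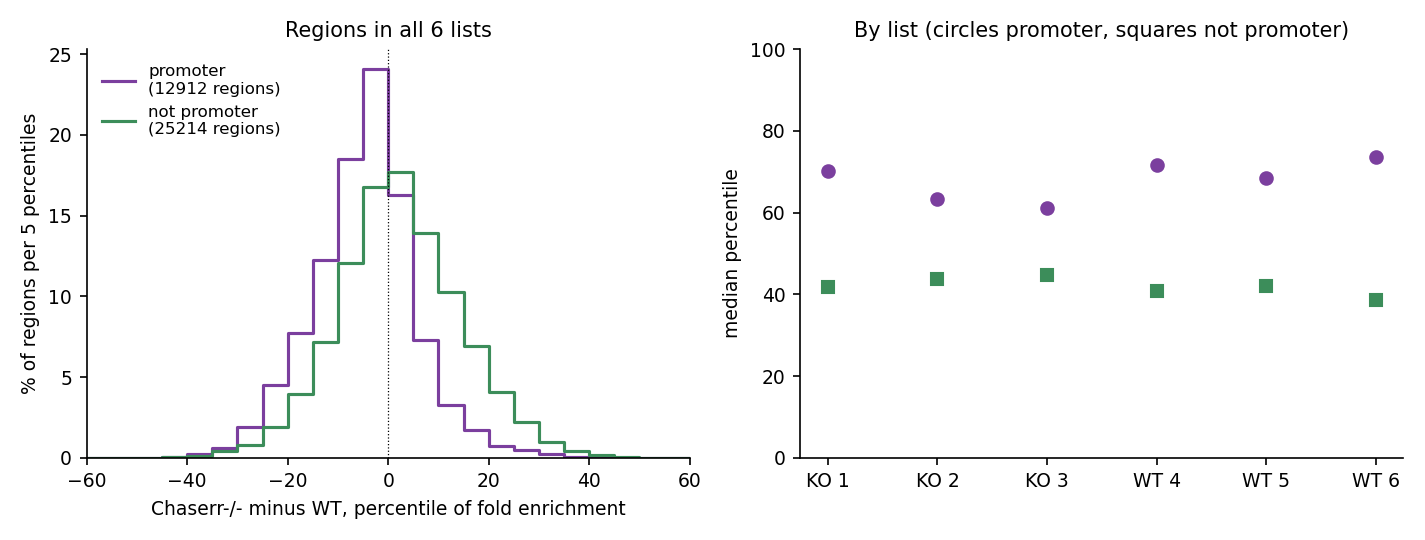
Left, the distribution of the percentile difference, *Chaserr*-/- minus WT, for promoter regions and all other shared regions, as percent of regions per 5 percentiles. Right, the median percentile of each list, where promoters stand at 70.2, 63.4 and 61.1 in *Chaserr*-/- lists and at 68.4 to 73.7 in WT lists.

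TGANTCA, the pattern searched for AP-1 with any base in the middle, was found in 37.7% of shared regions away from promoters and in 5.81% of those at promoters. A stricter form was not counted. Among distal regions with separated groups it was in 48.3% of those higher and 26.7% of those lower in *Chaserr*-/- lists. Median GC contents of these 2 classes were 47.3% and 51.8%, and the part of GC content in the shares was not tested. The motif was in 37.6% of the regions present only in *Chaserr*-/- lists and 19.5% of those only in WT lists. All merged regions had it in 27.5%, and shared regions away from promoters in 37.7%. GGAATG, the TEAD motif, was in 29.3% and 24.9% of the higher and lower distal regions, and in 27.7% and 13.6% of the regions present only in *Chaserr*-/- and only in WT lists, beside 28.8% of all shared distal regions and 24.0% of all merged regions. Of the promoters of 14 AP-1 and immediate early genes 11 were open in all lists, and of those 0 were wholly lower and 0 wholly higher, beside 12.9% and 3.09% over all genes, shares at which few of 11 would be counted.

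The 26 open fibroblast promoters were present in all 6 lists, whereas 13 of 25 skeletal patterning promoters were present in some lists and absent from others. Counting promoters shared by all lists whose percentiles did not overlap, beside 12.9% lower and 3.09% higher over all genes, the fibroblast genes had 6 lower and 0 higher of 26. Among these 6, *Fn1* had percentiles of 51.8, 35.4 and 23.9 against 80.0, 60.8 and 57.0, yet its summit pile-up log2 fold change was -0.08 (edgeR adjusted p = 0.986). *Col1a1* had 37, 58 and 60 reads against 32, 44 and 24 (log2 fold change 0.15). In pile-up the 26 had a median log2 fold change of 0.16, and 0 were lower and 4 (*Col6a3*, *Dcn*, *Lox* and *Pdgfrb*, named after their values were seen) higher at an unadjusted p of 0.05, beside 4.5% and 1.86% of all promoters. None of the 26 passed the correction, beside 5 of all 14387 promoters tested.

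Among chromatin remodellers, 7 of 9 CHD genes were open in every list and 0 of the 7 separated in either direction, a count too small to set against the 12.9% and 3.09% of all promoters. *Chd1* had 50, 74 and 68 reads against 39, 64 and 34 (log2 fold change 0.01). Of 12 other remodeller and histone genes shared by all lists, *Smarcb1* and *Smarca4* were wholly lower and *Ino80* wholly higher, also few for such a reading. Skeletal patterning genes were open for 17, 18 and 20 of 25 in *Chaserr*-/- lists against 16, 14 and 15 in WT lists. Over all genes the open share was 45.5, 49.6 and 49.7% against 46.1, 46.5 and 45.2%, and the difference in counts was not tested. Of the 10 shared skeletal patterning promoters 3 were wholly lower, among them *Dlx3* and *Alx4*, and *Dlx5* was open in all 3 *Chaserr*-/- lists and no WT list. Hox promoters were open for 19, 25 and 25 of 39 against 20, 20 and 20.

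All 10 p53 target and senescence promoters were open in every list, with *Mdm2* and *Cdkn2a* wholly lower and *Cdkn2b* wholly higher, beside 12.9% and 3.09% of all promoters. Of 81 cytosolic ribosomal protein promoters shared by all lists, 14 were wholly lower and 0 higher, with a median percentile difference of -5.09, close to the -4.16 of all promoters, and a median pile-up log2 fold change of 0.06. Zinc finger genes had 22 lower (7.51%) and 11 higher (3.75%) of 293, beside 12.9% and 3.09% over all genes, and a median difference of -1.11. Laminin chains had 1 lower (*Lamc1*) of 8, and matrix enzyme genes 1 (*Bmp1*) of 5. Promoters of chondrocyte genes were open for 5, 8 and 5 of 11 against 4, 5 and 3, of epithelial genes for 0, 5 and 4 of 10 against 1, 3 and 2, and of neuronal genes for 3, 3 and 3 of 9 against 4, 3 and 3.

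Whether the effect of *Chaserr* loss differed when *Chd2* was mutated too was tested as the difference between both effects, over 12445 regions present in all 12 lists. No region passed (limma, 0 calls, 390 or 3.13% at an unadjusted p of 0.05; edgeR on pile-ups, 0 calls). In *Chaserr*-/- *Chd2* m/m lists 1, 2 and 3 the *Dapk3* promoter had 26, 77 and 75 reads, against 118, 21 and 74 in their WT lists. Among these lists *Chaserr*-/- *Chd2* m/m list 1 and WT list 2 were short, with 28349 and 18661 peaks. Scaled for this, the *Chaserr*-/- effect on *Dapk3* pile-up was lower than the double mutant effect by -0.80 on the log2 scale (SE 0.20, edgeR unadjusted p = 0.00039, adjusted p = 1.00), and that on *Tusc2* by -0.85 (SE 0.21, unadjusted p = 0.000459, adjusted p = 1.00). For *Snapc5* the difference was -0.53 (SE 0.26) and for *Klhdc9* -0.52 (SE 0.32). None of these differences passed the correction. The genes were named from the same *Chaserr*-/- and WT lists, or by the study from this series. Those lists enter the difference, so its sign and unadjusted p are not independent of that choice. In normal scores of fold enrichment rank, the double mutant effect itself was -0.19 at *Dapk3* (SE 0.41) and +0.23 at *Tusc2* (SE 0.44). At *Snapc5* it was -0.01 (SE 0.48) and at *Klhdc9* -0.73 (SE 0.51).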

How the data were processed

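ATAC-seq peak lists of 3 *Chaserr*-/- and 3 WT mEF samples, with 6 of the double mutant set, were used as deposited. The authors aligned reads to mm9 with Bowtie2 and called peaks with MACS2 in each sample, versions and cut-offs not given in the sources used here. Each deposited list holds the fold enrichment, a score (not used in tests), and -log10 p and -log10 q values. Overlapping peaks were merged. The summit pile-up was solved from fold enrichment and -log10 p, and came out whole within 0.002 for at least 99.957% of peaks. The deposited RNA tables hold RSEM expected counts, rounded here, and FPKM, both made by the authors per gene.

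Fold enrichment and -log10 q were ranked within lists and tested with limma 3.58.1, pile-ups and RNA with edgeR 4.0.16 (DESeq2 1.42.0 as an alternative) at an adjusted p of 0.05 (Benjamini-Hochberg), and list properties with exact permutation tests. Percentiles are taken within a list over the regions present in all 6. Gene starts came from 31843 of 32851 RefSeq promoters that matched mm9 identically (96.9%), otherwise from GENCODE vM1. Sequences are from mm9, and guide positions from exact matches to it.

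The members, gene lists and tests were chosen with earlier results of these data known. Names were drawn from genes the study singled out and from the 5 regions of smallest p in each direction. They also came from the 10 highest-ranked regions and up to 15 promoters of each presence class, and from 2 to 6 members of each list. The close tandem genes with the 10 largest falls and 5 largest rises were a further source. Not all of these are named here. Genes called by pile-up were named after their values were seen. Nothing in the labels says whether the RNA and ATAC-seq libraries share cultures. Methods were tested on simulated data. Some results of the tests are not reported here.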

Additional observations from a re-analysis of the deposited data

How the results depend on the processing

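No paired analysis was possible because the KO and WT lists carry different replicate numbers. The pile-up test and its alternatives were chosen after seeing the data. Regions present only in the 3 KO lists (1723) numbered 623 at equal list length, 774 with the 3 WT lists of the double mutant set added, and 3027 when a peak had to cover at least 0.5 of a region, and 2392 to 7864 when 1 list was left out (7864 without KO list 1). Regions only in WT lists (118) numbered 48 at a -log10 q of at least 5, 351 at equal length and 4 with the added WT lists, and 189 to 494 with 1 list left out. Promoters only in KO lists (97) numbered 48 at equal length, 46 with the added lists, and 128 to 383 with 1 list left out. Promoters only in WT lists (9) numbered 3 at a -log10 q of at least 5, 34 at equal length, 1 with the added lists, 5 with GENCODE starts, and 13 to 35 with 1 list left out. The rank tests called 0 regions, and with missing values ranked lowest 1 was lower by fold enrichment and 1 by -log10 q, both times the *Chaserr* region, which entered through its 3 WT lists alone, so that filter and deletion set the call. The pile-up test, their alternative, called 1 higher and 29 lower, and with 1 list left out fold enrichment ranks called 0 to 1 lower.

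In the pile-up test, the 1 higher region became 3 with scaling by background, 3 at a -log10 q of at least 5, 2 with peaks up to 200 bases apart merged, 0 with DESeq2, 0 with the added WT lists, and 0 to 13 with 1 list left out. The 29 lower became 3 with DESeq2, 5 without unplaced contigs, 4 on autosomes alone, 17 with the added WT lists, and 3 to 88 with 1 list left out (3 without KO list 3, 88 without KO list 1). *Dapk3* was called under each alternative run for it. The close tandem median (-4.98) was -1.79 by -log10 q and ranged from -7.35 to -4.06 with 1 list left out. Its gap to all promoters was -0.814, -1.13 by -log10 q, -0.834 with promoters of 1000 bases either side, +0.194 at 5 kb, +0.673 with no FPKM minimum, and -1.79 to -0.937 with 1 list left out (-1.79 without KO list 1). Without a filter on low counts, the median RNA log2 fold change was -0.0133 for KO-only and -0.47 for WT-only promoters, and with 1 RNA library left out -0.13 to -0.03 and -0.49 to -0.12. At equal list length the KO minus WT differences were 0 peaks, 109 bases of width, 0.655 of fold enrichment, 4.34 of -log10 q and -0.111 percentage points of promoter share. With 1 list left out they were 11596.5 to 27090 peaks, 7.59 to 16.4 Mb, 32.5 to 58 bases, -0.407 to -0.0583, 0.257 to 1.12 and -5.06 to -2.09. The cause of these changes was not tested, beyond equal length being fewer peaks. RNA calls were 3 higher and 13 lower with edgeR, 1479 and 1103 with DESeq2, and with 1 library left out 1 to 1626 and 1 to 1201.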
